A study of Mus musculus with 16 samples.

Results

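The 10 genes described here encode the main heat-inducible and constitutive chaperones of mouse cells and some of their partners: Hspa1a, Hspa1b, Hspa8 and Hspa5 of the HSP70 family, Hsp90aa1 and Hsp90ab1 of the HSP90 family, the J-domain protein Dnajb1, the nucleotide exchange factors Hsph1 and Bag3, and the mitochondrial chaperonin Hspd1. They were picked by name, and all 10 were found among the 18580 genes measured. RNA came from brain macrophages and brain microglia, isolated by flow cytometry from CD163KO mice (CD163tm1.1(KOMP)Vlcg) of both sexes and from WT littermates on the C57BL/6N background. Mice were 12 weeks old at surgery, received α-syn MONO (monomers) or α-syn PFF (pre-formed fibrils) into both striata, and were sacrificed 2 months later. No library came from an animal without injected α-syn, so every comparison of treatments is between fibrils and monomers. Microglia were gated as CD11b-positive cells with low to intermediate CD45 and macrophages as CD11b-positive cells with high CD45, a gate that also takes in neutrophils and NK cells. With 2 populations, 2 sexes, 2 genotypes and 2 treatments there were 16 kinds of sample, each represented by 1 table of values, called a library here. The sources name 4 to 7 mice per group and sequencing in triplicate, but not whether a table holds a single replicate or a pool of them. p-values therefore measure only the spread between these libraries.

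Chaperones of the HSP70 family bind unfolded stretches of proteins in a cycle driven by ATP. J-domain proteins such as Dnajb1 deliver clients and start the cycle, and exchange factors such as Hsph1 and Bag3 end it by releasing ADP. Hspa8 is the constitutive cytosolic member, Hspa1a and Hspa1b are its heat-inducible relatives, and Hspa5 (BiP) works in the lumen of the endoplasmic reticulum and is induced by the unfolded protein response. Hsp90aa1 and Hsp90ab1 are the inducible and constitutive cytosolic forms of HSP90, which matures kinases and receptors. The transcription factor HSF1 induces the cytosolic genes of this group under proteotoxic stress, and chaperone genes can also be induced while a tissue is dissociated and sorted. Cytosolic HSP70 and its J-domain partners are known to act on α-syn fibrils.

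The bases before the transcription start show how differently these genes are built, and 3 promoters are printed, those of a cytosolic, a mitochondrial and an endoplasmic reticulum chaperone, because heat shock and endoplasmic reticulum stress are read by different elements. Hspd1 has a further start in the table, whose window held no such element. All come from RefSeq on GRCm38.p6, each is the last 160 bases before the start of the gene, and capitals mark matches of a pair of inverted heat shock units (GAANNTTC or TTCNNGAA, searched on both strands, which overlap where units follow each other) or, in Hspa5, of the endoplasmic reticulum stress element (CCAAT, 9 bases, CCACG, searched on both strands). The Hspa1a promoter lies at chr17:34972157-34972316 on the minus strand, that of Hspd1 at chr1:55087933-55088092 on the minus strand, and that of Hspa5 at chr2:34771930-34772089 on the plus strand.
Hspa1a: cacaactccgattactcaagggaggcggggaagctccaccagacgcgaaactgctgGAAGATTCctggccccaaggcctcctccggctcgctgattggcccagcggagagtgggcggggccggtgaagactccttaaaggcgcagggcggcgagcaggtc
Hspd1: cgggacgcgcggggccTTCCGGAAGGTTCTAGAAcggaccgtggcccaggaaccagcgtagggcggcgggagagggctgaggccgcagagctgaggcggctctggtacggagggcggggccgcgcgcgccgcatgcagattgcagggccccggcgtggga
Hspa5: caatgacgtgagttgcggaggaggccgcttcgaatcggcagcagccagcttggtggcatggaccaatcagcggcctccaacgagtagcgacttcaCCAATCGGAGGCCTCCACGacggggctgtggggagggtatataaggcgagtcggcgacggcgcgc

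Of the 10 genes, 7 had a promoter in the RefSeq table. Hspa1a and Hspa1b each held 1 pair of heat shock units, starting 104 bases before the start, and Hspd1 held 3 overlapping pairs. Hsph1 held 3 pairs from either of its starts. The first began 54 or 33 bases before the start used, and the others lay after it. Bag3 held 1, which lay 43 bases after its start, and neither window of Dnajb1 held any. Such a pair was present in 15.1% of the 32851 promoters of the table in the window from 250 bases before to 50 bases after the start. Rows of 3 units were present in 0.603% of promoters and the element of Hspa5 in 0.119%. These are matches of letters and no measurement of binding. The promoter of Hspa1b differed from that of Hspa1a at 1 of the 160 bases, and the longest open reading frames of the 2 genes were identical at 1918 of 1926 bases. Reads that match both genes were divided between them by RSEM, so the split between Hspa1a and Hspa1b is uncertain and their sum is the firmer value.

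Depth and labels were checked first. The estimated counts of a library summed to between 12170686 and 21433841 in macrophages and to between 8648751 and 18768238 in microglia. The 12 microglia markers had a median FPKM (fragments scaled to transcript length and library size) of 1045 to 1364 in the microglia libraries and of 25.9 to 103 in the macrophage libraries. The neutrophil markers summed to between 22184 and 134715 FPKM in macrophages and to between 953 and 2725 FPKM in microglia. Cd163 had at most 1 count in the CD163KO macrophages against 748 to 5275 counts in the WT macrophages. In microglia, where Cd163 was low throughout, it did not separate the genotypes: the 4 CD163KO libraries had 5 to 23 counts, both female WT libraries 46 and 101, and both male WT libraries 0 and 1. Ddx3y, a Y-linked gene, had 421 counts in the microglia library labelled female CD163KO MONO, against at most 2 counts in the other 7 libraries labelled female. Male microglia libraries had 231 to 1072 counts of it. The Y-linked genes Eif2s3y, Kdm5d and Uty had 173, 205 and 0 counts in the microglia library labelled female CD163KO MONO. The pair of male CD163KO MONO libraries, a group left out by the study, stood apart from the rest, and so did both male WT PFF libraries. The 20 most abundant genes held 46.2% to 72.0% of the counts in 6 macrophage libraries but 21.1% in male CD163KO MONO and 21.4% in male WT PFF macrophages. In microglia these genes held 18.4% to 20.7% in 6 libraries but 55.0% in male CD163KO MONO and 67.7% in male WT PFF. Macrophages of those 2 combinations correlated with any other macrophage library at a Pearson's r of 0.65 to 0.76 across genes, compared with 0.90 to 0.94 among the other 6. Microglia of those 2 combinations correlated at 0.97 with each other and at 0.84 to 0.92 with the rest, and the least alike microglia library was male WT MONO with 0.84 to 0.88. FPKM of a library shift together when a few genes take many reads. Levels below are on FPKM and carry such shifts, while tests use scaling with TMM (a factor per library under which most genes keep a common level). The male CD163KO MONO libraries enter levels, ratios and ranges over all libraries of a population and the search for outlying libraries, but not the main tests between groups.

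The constitutive chaperones dominated both populations. Hspa8 was the most abundant of the 10 genes in every library, with 438 FPKM at the lowest, a median of 1168 FPKM and 1790 FPKM at the highest over the 8 macrophage libraries. In microglia Hspa8 had 854, 1078 and 1465 FPKM, the narrowest spread of the group with a 1.72-fold range. Hspa8 alone took 37.0% to 68.6% of the summed FPKM of the 10 genes in a library. Hspa5 followed with 181, 305 and 502 FPKM in macrophages and 302, 433 and 613 FPKM in microglia. Hspa8 exceeded Hspa5 in 16 of 16 libraries, and in microglia their ranges did not overlap.

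HSP90 came next, led by the constitutive form. Hsp90ab1 had 90.2, 178 and 383 FPKM (lowest, median and highest) in macrophages and 118, 304 and 508 FPKM in microglia. Hsp90aa1 had 19.2, 49.8 and 80.9 FPKM in macrophages and 37.9, 97.5 and 185 FPKM in microglia. Within a library Hsp90aa1 stood at 6.31% to 46.2% of Hsp90ab1 in macrophages and at 27.5% to 42.2% in microglia. The lowest of these shares, 6.31%, was that of male WT PFF macrophages.

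Hspa1a, the main heat-inducible gene, had 52.7, 120 and 217 FPKM in macrophages and 54.1, 150 and 1055 FPKM in microglia, the widest range of the group in microglia at 19.5-fold. In macrophages the widest ranges were those of Bag3 at 9.38-fold and Hspd1 at 9.21-fold. Hspa1b, which carries a far smaller part of the reads of the pair, had 0.93, 3.53 and 6.64 FPKM in macrophages and 4.83, 12.3 and 63.9 FPKM in microglia. Dnajb1, the J-domain partner of these proteins, had 16.7, 36.7 and 71.3 FPKM in macrophages and 18.1, 60.9 and 118 FPKM in microglia. Hspd1, which folds proteins in the mitochondrial matrix, had 9.76, 27.2 and 89.9 FPKM in macrophages and 9.77, 37.1 and 61.0 FPKM in microglia. Hsph1 had 1.42, 3.46 and 8.42 FPKM in macrophages and 1.96, 9.98 and 25.5 FPKM in microglia. Bag3, which couples HSP70 to selective autophagy, had 0.40, 2.52 and 3.75 FPKM in macrophages and 2.37, 6.42 and 14.2 FPKM in microglia. The order of the medians was the same in both populations: Hspa8, Hspa5, Hsp90ab1, Hspa1a, Hsp90aa1, Dnajb1, Hspd1, Hspa1b, Hsph1 and Bag3. Only Hspa8 and Hspa5 in microglia and Hspd1 and Hspa1b in macrophages were neighbours in this order whose ranges did not overlap. Dnajb1 exceeded Hspd1 in 5 of 8 macrophage libraries, and Hspa1b exceeded Hsph1 in 4 of 8.

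**Figure D1:**
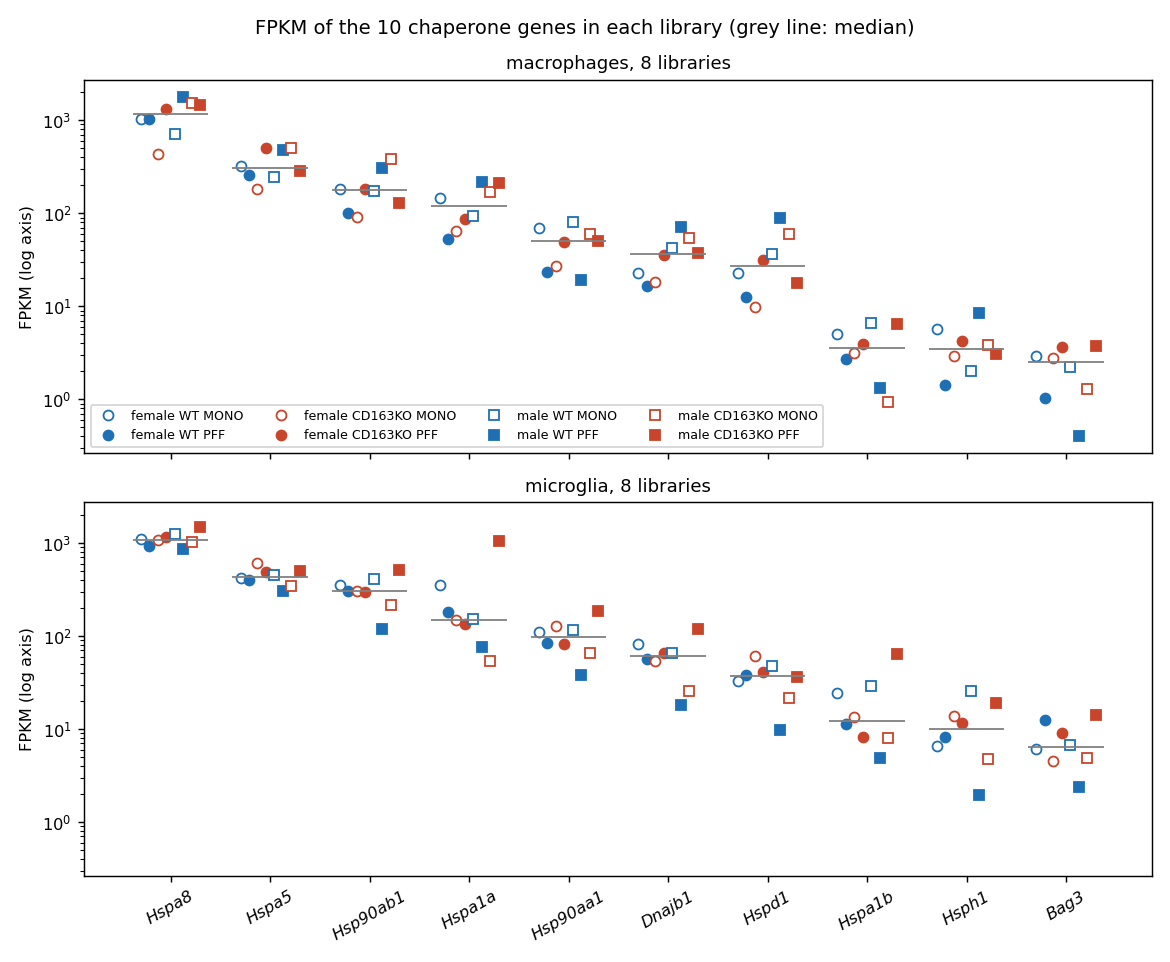
FPKM of the 10 genes (log axis) in the 8 macrophage libraries (top) and the 8 microglia libraries (bottom), with 1 point per library, circles for females, squares for males, blue for WT, red for CD163KO, open for MONO and filled for PFF; grey lines are medians. The order of the medians is the same in both panels, and Hspa1a in male CD163KO PFF microglia lies at 1055 FPKM, above the other 7 microglia libraries.

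The first comparison asked how microglia differ from brain macrophages in chaperone expression. Hspd1 was lower in microglia under TMM, with a log2 fold change of -0.93 ± 0.28 (SE, 7 libraries per population, combination as block; edgeR quasi-likelihood adjusted p = 0.0371). It was the only 1 of the 10 genes called, at an adjusted p of at most 0.05, compared with 18.2% of the 13704 genes tested. Hspa8 had the largest difference, -1.29 ± 0.43 (edgeR adjusted p = 0.0566), followed by Hspa5 with -0.89 ± 0.36 (edgeR adjusted p = 0.122). The remaining genes lay between -0.48 for Dnajb1 and 0.65 for Hspa1b.

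The male WT PFF libraries bore on these calls. Without them, 7 of the 10 genes were lower in microglia, compared with 35.7% of the genes tested that were called in either direction. These were Hspa8 (-1.58 ± 0.30, edgeR adjusted p = 0.00104), Hspa5 (-1.18 ± 0.24, edgeR adjusted p = 0.00212), Hspd1 (-0.82), Hsp90aa1 (-0.58), Hspa1a (-0.57), Hsp90ab1 (-0.52) and Dnajb1 (-0.51). Hspa1b, Hsph1 and Bag3 were not called, with values of 0.27, 0.22 and -0.19. In females alone, an alternative added after seeing the data, 4 genes were lower in microglia (Hspa8, Hspa5, Hspa1a and Hsp90ab1) with 31.4% of genes called. Without any 1 of the female CD163KO PFF, female WT MONO, female WT PFF, male CD163KO PFF and male WT MONO combinations, none of the 10 genes was called, and the adjusted p of Hspd1 rose to between 0.0918 and 0.109 while its log2 fold change stayed between -0.92 and -0.86.

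The sign of these differences depended on the scaling. With library totals alone, all 10 values were positive and Hspa1b (2.10), Hsp90aa1 (1.26) and Hsp90ab1 (1.03) were called higher in microglia, where 46.0% of genes were called. With limma on log2(FPKM + 1), Hspa1b (1.84), Bag3 (1.35) and Hsp90aa1 (1.24) were called higher, where 56.8% of genes were called. The median of all genes moved with the scaling as well, from 0.37 under TMM to 1.96 with library totals and 1.12 on log2(FPKM + 1). Relative to that median the values kept their sign for most genes: Hspa8 lay at -1.66 under TMM, at -1.85 with library totals and at -1.01 on log2(FPKM + 1). Hspa8, Hspa5, Hspd1, Hspa1a, Dnajb1 and Hsp90ab1 lay below the median of all genes in 18 of 18 settings, the 10-gene range running from -1.66 to 0.27 under TMM. Hspa1b lay above it in 16 of 17 settings, females alone being the exception. These settings refit overlapping libraries, and how many of all genes lay below the median in every setting was not counted. The summed counts of Hspa1a and Hspa1b, which do not depend on how their shared reads were split, had a log2 fold change of -0.41, which is -0.78 relative to the median. The 8 monocyte markers summed to between 363 and 3670 FPKM in macrophages and to at most 90.4 FPKM in microglia, all neutrophil sums were higher in macrophages as given above, and their part in these differences was not tested.

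**Figure D2:**
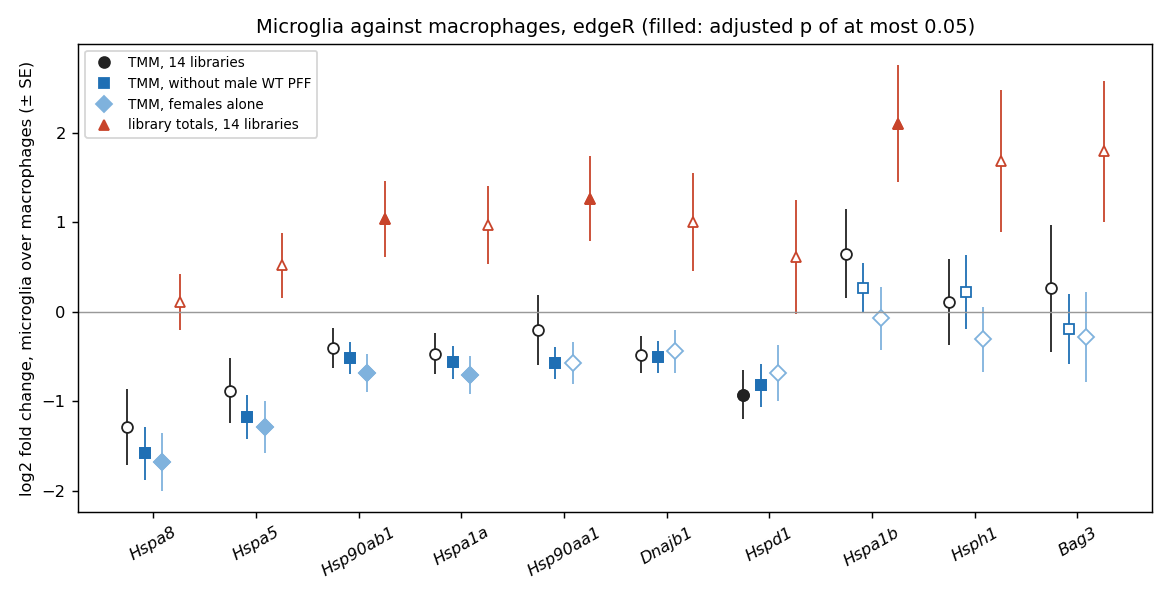
log2 fold change of microglia over macrophages with its SE (bars) for the 10 genes under 4 settings, filled where the adjusted p of edgeR was at most 0.05. Hspa8 and Hspa5 lie below 0 under the 3 TMM settings and above 0 with library totals, and Hspd1 is the only filled point of the 14 libraries under TMM.

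Ratios between genes of the same library do not depend on the scaling. Hspa5 stood at 19.7% to 41.3% of Hspa8 (median 32.1%) in macrophages and at 33.5% to 57.7% (median 37.2%) in microglia. It was higher in microglia in 8 of 8 combinations. Hspa1b relative to Hspa8 was also higher in microglia in 8 of 8 combinations, with medians of 0.375% and 1.24%. Bag3, Hsph1 and Hsp90aa1 relative to Hspa8 were higher in microglia in 7 of 8 combinations each, Hsp90ab1 in 6 of 8, and Dnajb1 and Hspd1 in 5 of 8. Hspa8 had the lowest value of the 10 genes in microglia relative to macrophages, and such a ratio was higher in microglia for many genes: of 7242 other genes with a median of at least 1 FPKM in both populations, 14.3% were higher in 8 of 8 combinations, 37.0% in at least 7 and 79.5% in at least 5. Hspa1a relative to Hspa8 divided evenly, higher in microglia in 4 of 8 combinations.

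**Figure D3:**
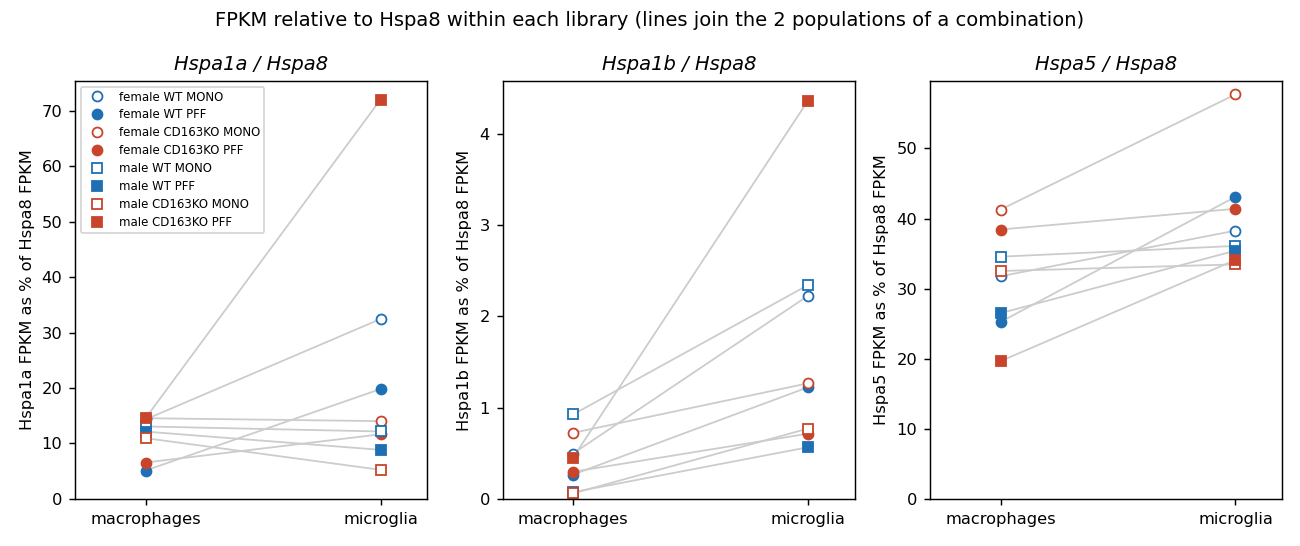
FPKM of Hspa1a, Hspa1b and Hspa5 as a percentage of that of Hspa8 in the same library, for macrophages and microglia, with lines joining the 2 populations of a combination and symbols as in the plot of FPKM. Hspa5 and Hspa1b rise from macrophages to microglia in 8 of 8 combinations, and Hspa1a reaches 72.0% in male CD163KO PFF microglia.

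The wider chaperone lists were counted in the same fit of 14 libraries, beside 18.2% of all genes called and a median log2 fold change of 0.37. Of 14 genes of the TRiC chaperonin, which folds actin and tubulin, and of prefoldin, which feeds it, 5 were lower in microglia and none was higher. Their median was -0.50, and Pfdn1 (-1.93 ± 0.49, edgeR adjusted p = 0.0166), Pfdn6 (-1.65) and Pfdn5 (-1.19), subunits of prefoldin, had the largest changes among those called. Of 18 genes of the HSP90 machinery, 3 were lower: the adaptor Stip1 (-1.42), the ATPase activator Ahsa1 (-1.02) and the ubiquitin ligase Stub1 (-0.78). Of 18 J-domain proteins, Dnajc9 (-2.40), a histone chaperone, Dnajc8 (-1.26) and Dnaja1 (-0.67) were lower and Dnajb5 was higher (3.76 ± 1.05, edgeR adjusted p = 0.0282). Of 15 mitochondrial genes, Hspe1 (-1.29), the partner of Hspd1, the import factor Dnajc19 (-1.27) and Hspd1 itself were lower. Of 18 small heat shock, HSF and other heat-inducible genes, 4 were lower, among them the polyubiquitin gene Ubb (-3.70 ± 1.08, edgeR adjusted p = 0.0343), Cryab (-2.16) and the heme oxygenase Hmox1 (-1.99), and Hsf2 was higher (2.05). None of the 18 HSP70 and exchange genes tested and none of the 24 endoplasmic reticulum genes was called by edgeR, with 5 and 3 genes at an unadjusted p below 0.05. DESeq2 called 4 HSP70 genes higher and 2 lower and 2 endoplasmic reticulum genes higher, beside 34.5% of all genes. With limma on log2(FPKM + 1), 10 of 18 and 16 of 23 were higher, beside 56.8% of all genes. Without male WT PFF, 6 of 18 and 6 of 24 were called, 3 in each direction in both lists, beside 35.7% of all genes. Calls in the other 5 lists depended on the setting as well. DESeq2 called 1 TRiC or prefoldin gene higher and 6 lower, and without male WT PFF edgeR called none higher and 8 lower in this list. For the HSP90 machinery the counts were 1 higher and 4 lower with DESeq2 and 2 higher and 6 lower without male WT PFF, and for the J-domain proteins 2 and 4 and then 5 and 5. With limma on log2(FPKM + 1) the median of all genes was 1.12 and 56.8% of them were called. In that setting 5 TRiC or prefoldin, 9 HSP90, 6 J-domain, 7 mitochondrial and 5 small heat shock and other genes were higher, and 1 gene of the last list was lower.

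The second comparison asked whether fibrils changed chaperone expression relative to monomers. In macrophages none of the 10 genes was called by edgeR, beside 0% of 11988 genes, and none reached an unadjusted p below 0.05; DESeq2 and limma called none either, with 2 and 1 genes at an unadjusted p below 0.05. Hspa8 had the largest difference, with a log2 fold change of 1.29 ± 0.57 under PFF (edgeR adjusted p = 1). Its FPKM were 1024 (female WT), 718 (male WT) and 438 (female CD163KO) under MONO and 1029, 1790 and 1307 in the same order under PFF, with 1444 in male CD163KO. The MONO value was the lower in each of the 3 pairs, by 1.01-fold in WT females and by 2.98-fold in CD163KO females. The excluded male CD163KO MONO library had 1537 FPKM, above 3 of the 4 PFF values, so with it the ranges overlapped on FPKM and the fourth pair ran the other way. After TMM that pair ran as the other 3, with 2042 CPM under MONO and 7290 CPM under PFF. Hspa5 had a difference of 0.86 ± 0.39 and Hspd1 of 0.71 ± 0.39, each higher under PFF in 2 of 3 pairs on FPKM and in 3 of 3 after TMM. On FPKM, Hsp90aa1 and Bag3 were lower under PFF in both pairs of WT mice and higher in CD163KO females, and after TMM Bag3 was lower in 3 of 3 pairs. In the male WT pair Hsp90aa1 fell from 80.9 to 19.2 FPKM and Bag3 from 2.25 to 0.40 FPKM. That pair holds the male WT PFF library described above as standing apart. Without it, the fitted values were 1.53 ± 0.54 for Hspa8, 0.18 for Hsp90aa1 and 0.12 for Bag3, where the fit with it gave -0.42 for Hsp90aa1 and -0.45 for Bag3, and none was called.

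In microglia none of the 10 genes was called by edgeR between PFF and MONO, beside 0% of 12725 genes; 1 gene reached an unadjusted p below 0.05, and DESeq2 and limma called none. That gene was Bag3, with a log2 fold change of 1.08 ± 0.42 (edgeR adjusted p = 0.776). Its FPKM were 6.03 under MONO and 12.5 under PFF in WT females, and 4.56 and 9.17 in CD163KO females, the last MONO library having the Ddx3y counts given above. In WT males they were 6.80 and 2.37, the reverse order on FPKM. After TMM Bag3 was higher under PFF in 3 of 3 pairs, and the value without any 1 library lay between 0.90 and 1.18. Hspa1a was lower under PFF in 3 of 3 pairs on FPKM, with 355 and 182 FPKM in WT females, 149 and 135 FPKM in CD163KO females and 151 and 75.6 FPKM in WT males. After TMM it was lower in 2 of 3 pairs and higher in WT males. Hspa1b was likewise lower in 3 of 3 pairs on FPKM and after TMM, with ratios of 0.462, 0.618 and 0.166. Hspa5, Hsp90aa1 and Hsp90ab1 were also lower in 3 of 3 pairs on FPKM, but after TMM they were higher in 2, 1 and 1 of 3. The fourth pair, male CD163KO, holds the excluded MONO library and ran the other way on FPKM for all of these genes. There Hspa1a rose from 54.1 to 1055 FPKM and Hspa1b from 7.94 to 63.9 FPKM. None of these genes passed the test, and the fit gave 0.28 ± 0.76 for Hspa1a, which includes the male CD163KO PFF library, and -0.40 ± 0.48 for Hspa1b.

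**Figure D4:**
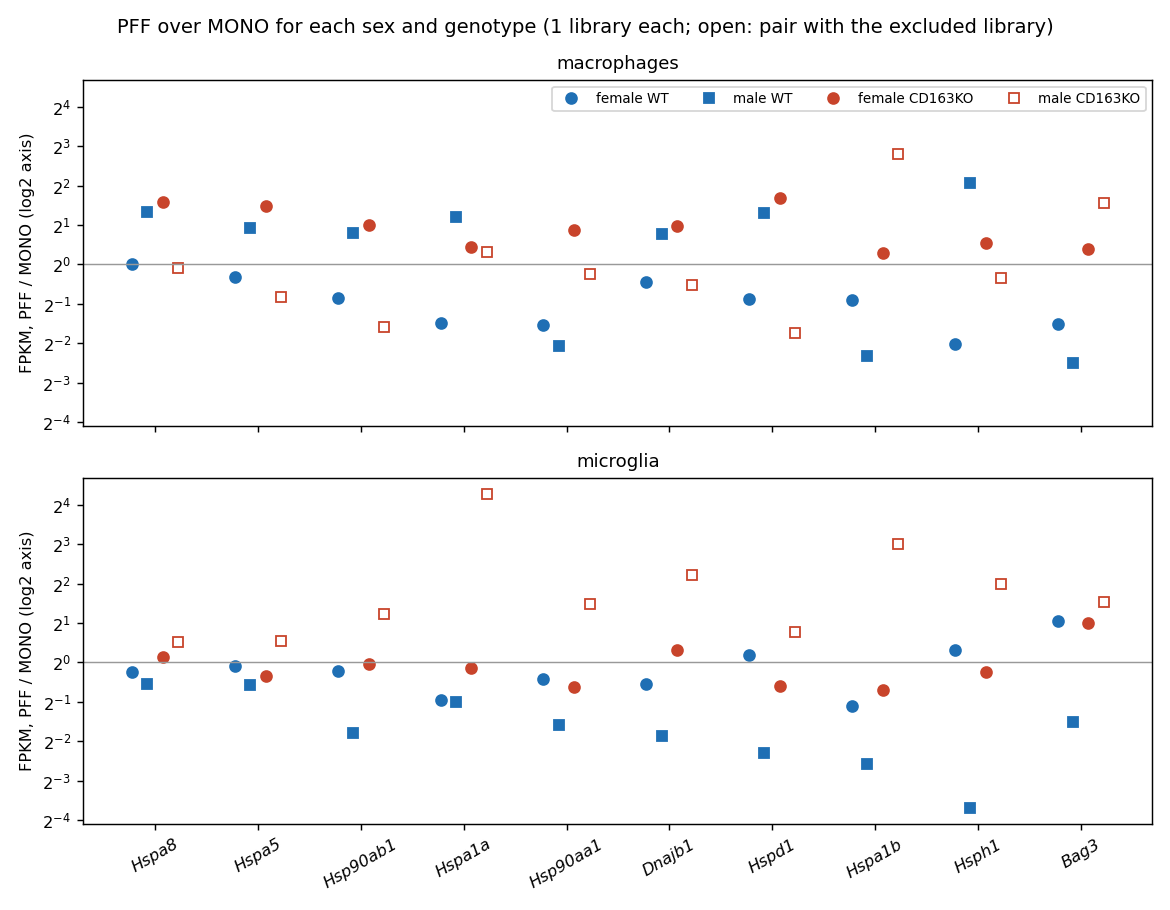
Ratio of the FPKM under PFF to that under MONO (log2 axis) for the 10 genes in macrophages (top) and microglia (bottom), with 1 point for each sex and genotype, open squares being the pair with the excluded male CD163KO MONO library. Hspa8 in macrophages lies at or above 1 in the 3 filled pairs and below 1 in the open pair. Hspa1a, Hspa1b, Hspa5, Hsp90aa1 and Hsp90ab1 in microglia lie below 1 in the 3 filled pairs and above 1 in the open pair.

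The third comparison asked whether loss of CD163 went with a change in chaperones. In macrophages none of the 10 genes was called by edgeR, beside 0.00834% of 11988 genes, and none reached an unadjusted p below 0.05 with edgeR, DESeq2 or limma. Bag3 had the largest value, 1.74 ± 1.30 (SE) higher in CD163KO (edgeR adjusted p = 1). Its FPKM were 2.93, 1.03, 2.25 and 0.40 in the 4 WT libraries and 2.78, 3.64 and 3.75 in the 3 CD163KO libraries, so the ranges overlapped. Without male WT PFF the value of Bag3 was 1.03 ± 0.57, and over all settings it ran from 0.70 in females alone to 2.72. The other 9 values lay between -0.31 for Hspd1 and 0.72 for Hspa1b. In microglia none of the 10 genes was called by edgeR, beside 0% of 12725 genes, and none reached an unadjusted p below 0.05 with any of the 3 tools. Hsph1 had the largest value, 0.65 ± 0.38 higher in CD163KO, and was higher in CD163KO in 3 of 3 pairs. Its FPKM were 6.61, 8.26, 25.5 and 1.96 in WT and 13.8, 11.7 and 18.9 in CD163KO microglia. Hspa5 and Hspd1 were higher in CD163KO microglia in 3 of 3 pairs on FPKM, and in 2 of 3 after TMM. In the fourth pair, male MONO with the excluded library, Hsph1 had 4.77 FPKM in CD163KO and 25.5 FPKM in WT. Hspa5 and Hspd1 were also lower in CD163KO in that pair on FPKM. Of the 3 pairs, female MONO holds the library with Ddx3y counts and male PFF holds the male WT PFF library.

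Sexes were compared with treatment and genotype as covariates. In macrophages none of the 10 genes was called by edgeR, beside 0% of 11988 genes, and none reached an unadjusted p below 0.05 with edgeR, DESeq2 or limma, the values lying between -0.61 for Hspa5 and 0.44 for Dnajb1. In microglia none was called by edgeR either, beside 0% of 12725 genes. All 10 values were above 0 in males, with a median of 0.69 beside 0.02 for all genes. Without male WT PFF, Hspd1 was at -0.02 and the other 9 stayed above 0. Without male CD163KO PFF, which held the highest levels of most of these genes, Hspa1a was at -0.04, Bag3 at 0.05 and Dnajb1 at 0.17. Hspa1b (1.58 ± 0.47) and Hsph1 (0.99 ± 0.37) reached an unadjusted p below 0.05, as did 5 genes with DESeq2 and none with limma, and their adjusted p with edgeR was 1.00. Hspa1b had 13.4, 8.30, 24.4 and 11.2 FPKM in the libraries labelled female and 63.9, 29.1 and 4.83 FPKM in those of males, so the groups overlapped on FPKM. Without the male CD163KO PFF library the value of Hspa1b was 0.68 ± 0.41, and without the microglia library labelled female CD163KO MONO it was 1.41 ± 0.49. An unlike response to PFF in CD163KO and WT was tested as an interaction. None of the 10 genes was called by edgeR, DESeq2 or limma, or reached an unadjusted p below 0.05 with any of them, beside 0% of 13020 genes in macrophages and 0.0211% of 14225 genes in microglia. The largest values were 2.46 ± 1.26 for Hsp90aa1 in macrophages, where the median of all genes was 1.06, and -1.59 ± 1.14 for Hspa5 in microglia, where it was 0.02. Without male WT PFF they were 0.86 and -0.35. Without female WT PFF, Hsp90aa1 (3.47) and Hspa1b (3.47) were called in macrophages, in a fit with 1 residual degree of freedom in which 3378 genes were called. SEs of the 10 genes in macrophages ran up to 1.28 for treatment and up to 3.49 for the interaction, so these designs could not resolve changes of 2-fold for several of them.

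A single library held the highest levels of most of these genes. In male CD163KO PFF microglia Hspa1a reached 1055 FPKM, from 46758 estimated counts, 7.09 times the median of 149 FPKM of the other 7 microglia libraries, which ran from 54.1 to 355 FPKM. Hspa1b reached 63.9 FPKM there, 5.69 times the median of the others, whose highest value was 29.1 FPKM. Hspa1a relative to Hspa8 was 72.0% in this library and 5.25% to 32.4% in the other 7, a ratio on which the scaling has no effect. Bag3 (14.2 FPKM), Dnajb1 (118 FPKM), Hsp90aa1 (185 FPKM), Hsp90ab1 (508 FPKM) and Hspa8 (1465 FPKM) were also highest in this library, at 2.35, 2.10, 2.21, 1.67 and 1.38 times the median of the others. Hsph1 was second to male WT MONO, with 18.9 FPKM. Hspa5, the chaperone of the endoplasmic reticulum, had 499 FPKM within the range of 302 to 613 FPKM of the others, and mitochondrial Hspd1 had 36.3 FPKM within 9.77 to 61.0 FPKM. The library was thus highest for 7 of the 10 genes on FPKM, beside 9.78% of the 9828 genes with a median of at least 1 FPKM, and for 5 of the 10 after TMM, beside 7.79% of these genes.

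Other heat-inducible genes were examined in the same library. Among all 9828 genes, ordered by the difference from the median of the other microglia on log2(FPKM + 1), Hspa1a ranked 6, Hspb1 ranked 7 and Hspa1b ranked 8. Hspb1, a small heat shock protein chosen here after its values were seen, had 36.6 FPKM against 1.43 to 19.3 FPKM in the others. Zfand2a, which is induced with proteasome stress and was chosen in the same way, had 11.6 FPKM against a highest value of 8.17 FPKM. Leaving out the 10 genes, 5 of 15 small heat shock and other heat-inducible genes were higher there than in each of the other 7 libraries on FPKM, beside 9.76% of all genes, and 5 of 15 after TMM, beside 7.79%. These were Hspb1, Zfand2a, Hmox1, Dedd2 and Hsf1, the last 3 also named after their values were seen. The counts were 3 of 16 HSP90 genes, 3 of 17 J-domain genes, 4 of 22 endoplasmic reticulum genes and 3 of 14 mitochondrial genes on FPKM, and 1, 1, 2 and 2 of them after TMM. For TRiC and prefoldin the count was 1 of 14 on FPKM and 0 after TMM, and none of the 11 remaining HSP70 and exchange genes was highest there on FPKM, nor any of the 10 with a TMM value after TMM. The 20 immediate early genes, which also respond to dissociation, summed to 3423 FPKM in this library and to between 678 and 6882 FPKM in the others. Its Pomc, a pituitary gene, was 15.2 FPKM with a median of 0.97 FPKM in the others, and the pituitary markers summed to 158 FPKM, the highest of the microglia, beside 102 FPKM in female WT PFF microglia. With 1 library of this kind, genotype, treatment, sex and the handling of this preparation cannot be told apart.

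**Figure D5:**
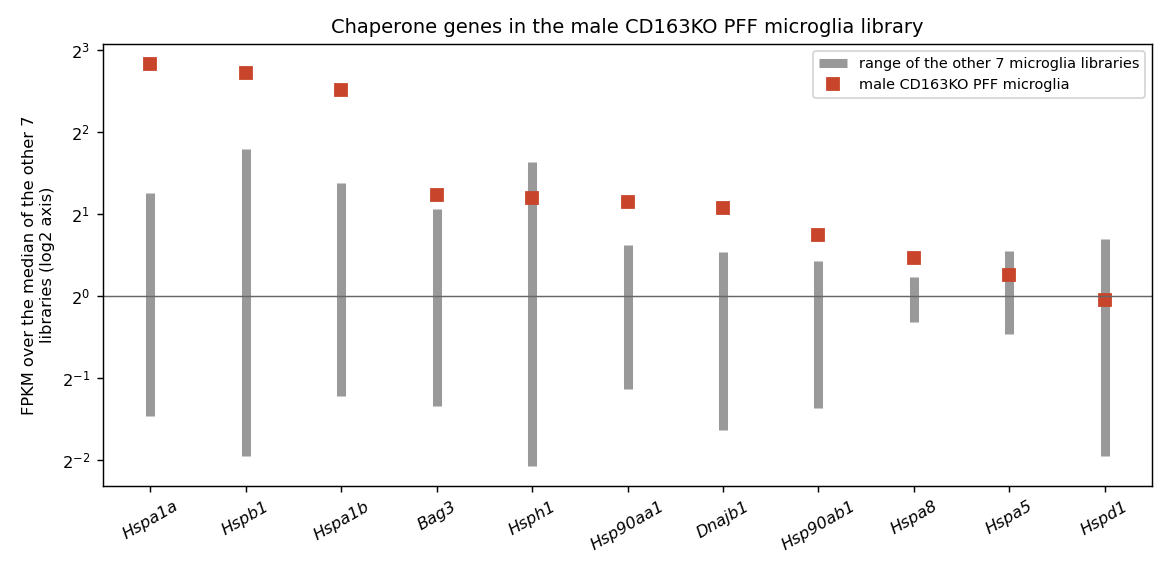
FPKM in male CD163KO PFF microglia divided by the median of the other 7 microglia libraries (log2 axis, red squares), with grey bars for the range of those 7, for the 10 genes and Hspb1. Hspa1a, Hspb1 and Hspa1b lie at 7.09, 6.59 and 5.69 times the median, above the bars, while Hspa5, Hspd1 and Hsph1 lie within them.

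How far male CD163KO PFF macrophages stood out depended on the scale. Male CD163KO PFF macrophages had 210 FPKM of Hspa1a, second to 217 FPKM in male WT PFF, and 6.52 FPKM of Hspa1b, second to 6.64 FPKM in male WT MONO. Hspa1a relative to Hspa8 was 14.6% there, close to the 14.6% of female CD163KO MONO and the 14.3% of female WT MONO macrophages. After TMM this library was the highest macrophage library for 7 of the 10 genes, beside 8.61% of 7724 genes, and on FPKM for 1 of them, beside 1.72%. Its Hspa1a was 1423 TMM CPM, with 586 in the next macrophage library, close to the 1496 TMM CPM of male CD163KO PFF microglia.

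Genes whose pattern was most like that of Hspa1a and Hspa1b together were listed over the 14 libraries, each population centred at its own mean on log2(TMM CPM + 1), among 7210 genes. Dnajb1 came first (Pearson's r = 0.77) and Hsp90ab1 second (r = 0.70). Fam104a, Arf5, Myl12b, Ltf, Fam172a, Slc39a7, Cdk4 and Rfng followed with r between 0.68 and 0.64. Hspa8 ranked 124 (r = 0.49), Hsp90aa1 236, Bag3 343, Hspa5 1097 and Hsph1 1282, and Hspd1 had an r of -0.17. Without the male CD163KO PFF microglia, Dnajb1 ranked 48 (r = 0.66) and Hsp90ab1 98 (r = 0.61), with Mlxip first (r = 0.87). Without the male WT PFF libraries Dnajb1 stayed first (r = 0.77) and Hsp90aa1 moved to rank 4 (r = 0.75). These values describe likeness over few libraries that share depth and scaling.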

How the data were processed

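Each of the 16 libraries was prepared by SMART-seq2 from RNA of sorted cells, and per the labels the RNA came from 200000-500000 microglia or 10000-30000 macrophages. The authors mapped reads with Bowtie2 and estimated expression with RSEM; the build named in the submitters' processing notes is mm10. The deposited estimated counts (expected counts) are not normalized, and the deposited FPKM are scaled by the authors to transcript length and library size. The labels name 2 batches of mice but not the batch of each library, so no value within a batch could be given.

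RefSeq transcripts were summed by symbol (27632 of 27787 matched, 99.4%), and transcripts not listed in a table were taken as 0. Summed estimated counts were rounded and tested across all genes with edgeR 4.0.16 (filterByExpr with a minimum count of 10, TMM, quasi-likelihood test, Benjamini-Hochberg, called at an adjusted p of at most 0.05) in R 4.3.3. Populations were compared in 14 libraries with the 7 combinations as block, and treatment, genotype and sex in the 7 libraries of a population with the other 2 factors as covariates (3 residual degrees of freedom, 2 for the interaction). The male CD163KO MONO libraries were left out of these fits, as in the study. The study also corrected for batch and removed outlier samples, and neither step was repeated here. The procedure was tested on simulated data. Alternatives were DESeq2 1.42.0, limma 3.58.1 on log2(FPKM + 1) and log2(FPKM + 0.1), with genes of at least 1 FPKM in 3 libraries, other scalings and filters, all 16 libraries and each combination left out. Named are the 10 genes, the 3 called genes of each chaperone list with the largest change in each direction, Cd163, Y-linked genes and the 10 genes most like Hspa1a and Hspa1b. Hspb1, Zfand2a, Dedd2, Hsf1, Pomc and Mlxip were named after their values were seen, as was Hmox1 in male CD163KO PFF microglia. Members and lists were chosen with earlier results of these data known. Promoters are from RefSeq (GRCm38.p6) and transcripts of Hspa1a and Hspa1b from GENCODE. Tables were made with Python 3.11.15 and pandas 2.3.3.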

Additional observations from a re-analysis of the deposited data

Results flagged for a closer look

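Among the 8 microglia libraries, Hspa1a in male CD163KO PFF microglia (1055 FPKM) lay far from the others: its gap to the nearest library was 0.70 of the whole range, above Dixon's 95% critical value for 8 samples. Hspa1b in the same library (63.9 FPKM) also passed that value, with a gap of 0.59 of the range. Of the 20 combinations of gene and population examined on FPKM these were the 2 that did. That critical value assumes normally distributed values, and the values used here were not log-transformed, so no rate expected by chance is given. Both genes share reads, so they count as a single pattern. After TMM the gaps were 0.77 and 0.64 of the range, and 6 of the 20 passed, among them Hspa1a in male CD163KO PFF macrophages with 0.74. The library has no replicate, and what sets it apart was not tested.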

How the results depend on the processing

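Between populations, edgeR with TMM called 1 of the 10 genes and 2499 genes in all (910 higher and 1589 lower in microglia). DESeq2 called 2 of the 10 and 4733 genes (2500 higher, 2233 lower). Library totals alone called 3 and 6310 (5711 higher, 599 lower), limma on log2(FPKM + 1) called 3 and 6340 (5673 higher, 667 lower), and limma on log2(FPKM + 0.1) called 3 and 6326 (5654 higher, 672 lower). Females alone, added after seeing the data, gave 4 and 4084. The fit with no replicate block and no covariates called 2 of the 10, while no filter on low counts (2512 genes, 1345 higher and 1167 lower) and a required absolute log2 fold change of at least 1 each called 0. Leaving out each combination in turn gave 0 to 7 of the 10 and 1767 to 4869 genes, both highest values coming without male WT PFF (2249 higher, 2620 lower). Signs of called values reversed with scaling. With library totals Hsp90aa1 was 1.26, Hsp90ab1 1.03 and Hspd1 0.61. With limma Hsp90aa1 was 1.24 and Hspd1 0.46 at a pseudocount of 1, and 1.27 and 0.48 at 0.1. The median of all genes was 0.37 under TMM, 1.96 with library totals and 1.12 on log2(FPKM + 1). Relative to it Hspd1 lay at -1.30, -1.34 and -0.66 and Hsp90aa1 at -0.58, -0.69 and 0.12 in the same order. The cause was not tested.

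For treatment, genotype and sex none of the 10 genes was called under any alternative run, while 0 to 91 genes in all were called. In the interaction in macrophages, leaving out each combination called 0 to 2 of the 10, the highest without female WT PFF. The interaction without female CD163KO MONO could not be fitted. Of 1531 values of single genes under alternatives, 1497 kept their side of the threshold and any called sign, and 214 that were not called changed sign. Outside the comparison of populations none of the 10 genes was called in a main fit, so the count of 1497 says little about stability. Hspd1, the only 1 of the 10 called in a main fit, was called between populations in 8 of 19 settings, the main fit included. With 1 library per combination, no value has a replicate of its own.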
